A study of Mus musculus with 100 samples.

Results

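Neurons at day 16 of a differentiation from mouse embryonic stem (ES) cells were compared between KI and flox cells in RNA sequencing libraries that were picked by their titles. They are 4 of the 100 samples of the series, and 4 of its 37 RNA libraries. The flox neurons have the genotype Mll3-/-;Mll4flox/flox (libraries flox 1 and flox 2) and the KI neurons Mll3-/-;Mll4KI/KI (libraries KI 27 and KI 48). Both groups therefore lack a wild-type Mll3 allele by label, and they differ in Mll4. What KI stands for is not written out in the labels, and the series as a whole is about the enzyme activity of these proteins. Cells were grown as suspended aggregates until day 8, with 5 µM retinoic acid after day 4, then dissociated, plated on a coated surface, and kept in N-2 and later B-27 medium. No sorting step is described, so a library can hold every cell type of its dish. The labels do not say what the numbers 27 and 48 stand for or whether libraries of 1 group came from separate cultures, so the p-values below measure the spread between these libraries, which may be technical.

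MLL3 and MLL4, encoded by Kmt2c and Kmt2d, are large enzymes that place methyl groups on lysine 4 of histone H3, mostly at enhancers, the distal elements that switch cell type genes on. Aggregates treated with retinoic acid form neural progenitors, which stop dividing after plating and become neurons of hindbrain and spinal character, with astrocytes arising later. Such cultures also keep some cells of mesoderm and endoderm origin, such as fibroblasts.

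Gene-level totals were 39015978 to 59880727 reads per library, and the 10 most abundant genes took 3.48% to 4.71% of them. A total of 3 reads corresponds to 0.052 to 0.075 CPM (counts relative to library size, as scaled by TMM for the values below), taken here as the detection floor. KI 27 and KI 48 stood further apart than the flox libraries. On log2 CPM with 0.5 CPM added, 113 of 15860 genes (0.712%) differed at least 2-fold between KI 27 and KI 48, against 1 gene between flox 1 and flox 2. The genes that set them apart are described below. For gene lists, a count above 5 is also given without a library that moves it by more than 1.5 times when left out. Counts over all genes without 1 library stand in the closing section on processing, and those at 2-fold are not given. With 1 library left out, its group holds a single library that is assumed to vary like the pair of the other group, so these counts are a limited check. The neuronal label fitted the markers in all 4 libraries. Tubb3, the neuronal beta tubulin, was at 720 and 875 CPM in flox and 1237 and 1634 CPM in KI. Markers of pluripotent cells were low, with 10 of 14 too low to be tested (among them Pou5f1 and Nanog). Their summed level was 44.6 and 42.8 CPM in flox and 25.8 and 18.6 CPM in KI, and all 4 tested members fell (median -1.23; 2 without either flox library). Of 15 leukocyte markers, 13 were too low to be tested.

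Of 15860 genes tested with edgeR, 5686 were called (35.9%), meaning an adjusted p under 0.05. Higher in KI were 2467 genes (15.6% of those tested) and lower 3219 (20.3%). Changes of at least 2-fold were mostly downward, with 1634 genes lower (10.3%) and 329 higher (2.07%). Called genes that were higher had a median level of 57.0 CPM and a median log2 fold change of 0.55, while those that were lower had a median level of 9.78 CPM and a median of -1.02. Higher genes made up 43.4% of the calls, but 57.9% when the day 8 libraries were fitted together with those of day 16, which moved the median of all genes from -0.0028 to 0.086. In 11105 genes (70.0%) both libraries of 1 group lay above both of the other, so that a lack of overlap alone says little of a single gene.

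Kmt2c and Kmt2d, the targets of both alleles, were examined first. Kmt2c was at 94.9 and 87.7 CPM in flox and 84.1 and 93.6 CPM in KI, with overlapping groups (log2 fold change -0.04, SE 0.12, adjusted p = 0.826), although both groups are labelled null for it. Kmt2d was at 188 and 205 CPM in flox and 153 and 165 CPM in KI (-0.31, SE 0.12, adjusted p = 0.0509), and over the alternatives its adjusted p ranged from 0.019 to 0.289, with a call under upper quartile scaling, a minimum of 1 CPM, the length trend and limma-voom. A value per transcript shows neither a deleted exon nor a changed residue, so these levels do not check the genotypes. Among the 12 tested genes for H3K4 methyltransferases and subunits of their complexes, 1 was called (8.33%, beside 35.9% of all genes). This was Rbbp5, a core subunit, whose call was lost without flox 1, flox 2 or KI 48, at 47.7 and 43.8 CPM in flox and 37.8 and 31.6 CPM in KI (-0.40, SE 0.13, adjusted p = 0.0296). The X-linked demethylase gene Kdm6a, whose protein sits in the same complexes, was at 33.7 and 29.0 CPM in flox and 30.6 and 31.1 CPM in KI.

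The genes with the largest falls in KI were not neuronal genes. Saa3, an acute phase serum amyloid gene, was at 61.1 and 61.6 CPM in flox and at 0.209 and 0.123 CPM in KI (log2 fold change -8.52, SE 0.22, adjusted p = 7.76e-12). Upk3b, a uroplakin gene marking mesothelium, was at 19.5 and 21.5 CPM in flox and at 0.0571 and 0.0701 CPM in KI (-8.27, SE 0.27). C3, the central complement component, was at 74.5 and 79.7 CPM in flox and at 0.38 and 0.333 CPM in KI (-7.75, SE 0.19). Both flox libraries were far above both KI libraries for all 3. Upk3b was near the floor in KI, with 3 and 4 reads, and C3 was above it, with 20 and 19 reads. The other genes named by the size of their fall were Tmem221 (-7.10), the keratin gene Krt19 (-6.65), Spon2 (-6.63), the collagen gene Col6a6 (-6.52), the muscle myosin binding protein gene Mybpc1 (-6.52), the basonuclin gene Bnc1 (-5.89), the hormone gene Fgf21 (-5.84), the transcription factor gene Myrf (-5.69) and Arhgap45 (-5.69). In none of these 12 did the groups overlap, as the rule for naming them required. KI reads were few for Tmem221 (4 and 1), Spon2 (4 and 2) and Mybpc1 (8 and 2), with 1 KI library of each under the floor. Over the alternatives the log2 fold change ranged from -8.37 to -6.39 for Tmem221, from -7.24 to -6.17 for Spon2 and from -7.84 to -5.80 for Mybpc1.

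The largest rise among them was in Tac1, the precursor gene of substance P, which was at 20.9 and 18.0 CPM in flox and at 285 and 328 CPM in KI (log2 fold change 3.97, SE 0.14, adjusted p = 1.47e-10). Tacr1, the gene of the receptor for substance P, rose as well, from 7.48 and 7.14 CPM to 24.8 and 31.8 CPM (1.95, SE 0.16). Other transcripts named by their rise were those of the homeobox genes Hoxa9 (3.90), En2 (2.28) and Vax2 (2.17), the zinc finger gene Zfp560 (2.97), the RNA export factor gene Nxf3 (3.57), the fibrinogen-like gene Fgl2 (3.35), Gask1b (2.36), the neurite outgrowth gene Nrn1 (2.21) and the acyl-CoA synthetase gene Acsbg1 (1.93). Nrn1 was at 7.37 and 6.62 CPM in flox and 27.5 and 37.2 CPM in KI. Within the naming rule, rises were smaller than falls. The first 12 genes upward ended at a log2 fold change of 1.93, and the first 12 downward at -5.69. The rule left out Xlr, Gm-numbered and Rik genes. A run that holds Gm-numbered genes, given further below, rose by a median of 5.66.

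**Figure D1:**
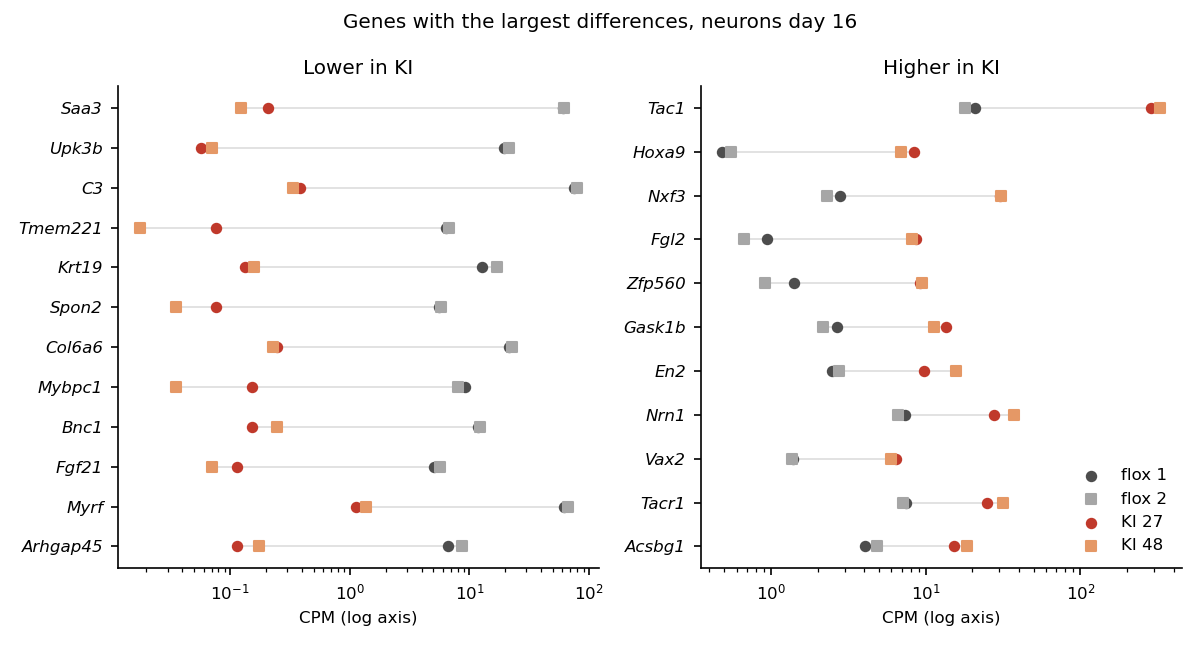
CPM on a log axis of the 12 genes with the largest falls (left) and 11 of the 12 with the largest rises (right) among called genes with at least 5 CPM in the higher group, 1 point per library. Xlr, Gm-numbered and Rik genes were left out before ranking. Saa3 sits at 61.1 and 61.6 CPM in flox and at 0.209 and 0.123 CPM in KI, and Tac1 at 20.9 and 18.0 CPM against 285 and 328 CPM.

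Several lists of neuronal genes were moderately higher in KI, and others were not. Of 24 tested genes for the neuronal cytoskeleton, adhesion and RNA binding, 17 rose and 1 fell, with a median log2 fold change of 0.53, beside -0.0028 over all genes tested. Stmn2, a tubulin-binding growth cone gene, rose from 615 and 552 CPM to 1137 and 1231 CPM (1.02, SE 0.11, adjusted p = 6.61e-06). The growth-associated gene Gap43 rose from 504 and 531 CPM to 935 and 1049 CPM (0.94, SE 0.11), and Nefh, the heavy neurofilament gene, from 13.0 and 12.4 CPM to 24.4 and 29.5 CPM (1.08, SE 0.15). The member with the highest level, Map1b, rose by 0.54 (SE 0.10). Rbfox3, whose protein NeuN marks mature neurons, was at 169 and 170 CPM in flox and 188 and 185 CPM in KI and was not called (adjusted p = 0.351). The 1 member that fell was Prph, a neurofilament-like gene of peripheral and motor neurons, from 1.51 and 1.54 CPM to 0.418 and 0.438 CPM (-1.83, SE 0.28).

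Of 23 tested genes for synaptic vesicles and release, 20 rose and none fell in the edgeR test (median 0.53). Snap25, a subunit of the fusion machinery, rose from 245 and 221 CPM to 521 and 532 CPM (1.17, SE 0.11, adjusted p = 2.24e-06). The vesicle protein gene Syp rose from 455 and 471 CPM to 767 and 777 CPM (0.74, SE 0.11). The 3 members that were not called, Bsn, Cplx2 and Unc13a, had log2 fold changes of 0.15, 0.18 and 0.29. Of 23 voltage-gated channel genes, 16 rose and none fell in the edgeR test (median 0.47). The channel list held 10 calls without flox 1, without flox 2 and without KI 48. In bulk RNA such differences cannot separate more cells of a type from more RNA per cell, and the same holds for every fall described here.

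Of 24 tested genes for glutamate receptors and transporters, 12 rose and 1 fell (median 0.46). Slc17a6, the vesicular glutamate transporter of hindbrain and spinal neurons, rose from 49.2 and 43.2 CPM to 138 and 133 CPM (1.55, SE 0.12, adjusted p = 2.4e-07). Slc17a7, the transporter of cortical neurons, was low throughout and fell from 0.295 and 0.597 CPM to 0.152 and 0.14 CPM (-1.54, SE 0.48, adjusted p = 0.0206), a call that was lost with DESeq2, without flox 2 and without KI 48. Of the AMPA receptor subunit genes, Gria2 (0.75), Gria3 (0.89) and Gria4 (0.98) rose, and Gria1 had a log2 fold change of 0.22 (adjusted p = 0.16). Of 24 GABA and glycine genes, 12 rose and 1 fell (median 0.46). Glra3, a glycine receptor subunit gene, rose from 1.2 and 0.747 CPM to 3.08 and 3.31 CPM (1.69, SE 0.25). Gad1, which makes GABA, rose by 0.36 (SE 0.12, adjusted p = 0.0265). The paralog Gad2 was at 32.5 and 30.6 CPM in flox and 34.3 and 33.9 CPM in KI (adjusted p = 0.524).

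Among genes for acetylcholine and monoamines only 5 of 15 had enough reads to be tested, and 3 of them fell. Ddc, the decarboxylase of dopamine and serotonin synthesis, fell from 0.677 and 0.672 CPM to 0.038 and 0.0526 CPM (-3.82, SE 0.49). Both KI values of Ddc lay at or under the floor of 3 reads, so the size of its fall is uncertain. Chat, Th and Tph2, the defining enzymes of cholinergic, catecholamine and serotonin neurons, were among the untested genes. Ache, which breaks acetylcholine down, was at 77.4 and 83.4 CPM in flox and 75.1 and 87.6 CPM in KI.

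Of 26 neuropeptide and granin genes, 10 rose (38.5%, beside 15.6% of all genes) and 4 fell (15.4%, beside 20.3%; 2 fell without either flox library). Besides Tac1, the rises included Adcyap1, the PACAP precursor gene, from 0.0867 and 0.174 CPM to 0.761 and 0.911 CPM (2.74, SE 0.41), and Penk, the enkephalin precursor gene, from 34.9 and 35.2 CPM to 65.1 and 63.5 CPM (0.88, SE 0.12). The granin gene Scg2, a cargo of dense-core vesicles, rose by 1.06 (SE 0.12). Nts, the neurotensin gene, fell from 17.0 and 14.3 CPM to 4.11 and 3.61 CPM (-2.02, SE 0.17), and Vgf, a secreted neuropeptide precursor gene, from 98.3 and 122 CPM to 61.6 and 51.1 CPM (-0.97, SE 0.14). Sst, the somatostatin gene, was at 37.9 and 48.4 CPM in flox and 35.3 and 41.3 CPM in KI (adjusted p = 0.389). The most abundant member, the processing enzyme gene Cpe, was not called (0.26, SE 0.10, adjusted p = 0.0656).

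Of 13 genes induced by neuronal activity, 1 was higher and 2 were lower (5 lower without KI 27, and none higher and 1 lower without either flox library), a share of 23.1% called beside 35.9% of all genes. Junb, an AP-1 subunit gene, fell from 20.1 and 24.9 CPM to 10.5 and 7.94 CPM (-1.29, SE 0.17). Npas4, the activity-dependent factor most restricted to neurons, rose from 6.42 and 6.72 CPM to 8.24 and 10.2 CPM (0.49, SE 0.17, adjusted p = 0.0371, up to 0.29 over the alternatives). Of 24 axon guidance genes, 5 rose and 4 fell (median 0.18), a share of 37.5% called beside 35.9% of all genes. Ntn1, the floor plate attractant netrin, rose from 42.5 and 50.1 CPM to 126 and 111 CPM (1.35, SE 0.13). Robo3, the receptor that lets commissural axons cross the midline, fell from 5.17 and 5.15 CPM to 0.628 and 0.824 CPM (-2.82, SE 0.22), and the ligand gene Slit3 fell by 2.28 on the log2 scale (SE 0.19). The related receptor Robo2 rose by 0.50 (SE 0.11).

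Transcription factors that mark classes of spinal and hindbrain neurons were called higher in 9 and lower in 3 of 24 (4 higher without flox 1, and 1 lower without flox 2 or KI 48). The shares were 37.5% higher and 12.5% lower, beside 15.6% and 20.3% of all genes. Pou4f1, a factor of sensory and dorsal neurons, rose from 43.0 and 54.8 CPM to 106 and 127 CPM (1.25, SE 0.14, adjusted p = 1.21e-05). Tal1, a factor of ventral V2b interneurons, rose from 0.694 and 0.473 CPM to 2.99 and 2.14 CPM (2.10, SE 0.28). Isl1, a motor neuron factor, rose from 0.729 and 0.921 CPM to 1.39 and 1.91 CPM (1.02, SE 0.27). Pax2, a marker of inhibitory dorsal interneurons and the most abundant of the list, fell from 102 and 115 CPM to 76.8 and 86.3 CPM (-0.42, SE 0.12, adjusted p = 0.0145), and Lhx5 fell by 0.67 on the log2 scale (SE 0.17). Of 10 tested forebrain and midbrain factors, 2 rose (20.0%, near the 15.6% of all genes; 1 without either flox library) and 4 fell (40.0%, beside 20.3%). Emx2 fell from 14.5 and 15.3 CPM to 4.05 and 3.14 CPM (-2.05, SE 0.18), and Lmx1a, a factor of midbrain floor plate and roof plate, from 1.21 and 0.747 CPM to 0.19 and 0.158 CPM (-2.51, SE 0.38). En2, a midbrain and hindbrain boundary gene, rose from 2.5 and 2.74 CPM to 9.72 and 15.6 CPM. The forebrain genes Six3 and Otx2 were too low to be tested.

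Hox genes, which encode position along the body axis, moved both ways. Of 30 tested, 12 rose (40.0%, beside 15.6% of all genes) and 7 fell (23.3%, near the 20.3% of all genes; 4 fell without flox 1 and 3 without flox 2). In the Hoxa and Hoxc clusters the largest rises were in genes 9 and 10. Hoxa9 was at 0.486 and 0.548 CPM in flox and 8.43 and 6.92 CPM in KI (3.90, SE 0.23, adjusted p = 1.91e-08), and Hoxa10 at 0.121 and 0.373 CPM in flox and 3.33 and 3.72 CPM in KI (3.93, SE 0.35). Hoxc9 rose from 0.295 and 0.398 CPM to 4.62 and 3.58 CPM (3.58, SE 0.28), Hoxc10 by 3.28 (SE 0.53) and Hoxc8 from 11.6 and 10.2 CPM to 47.6 and 33.3 CPM (1.89, SE 0.17). Hoxa2 to Hoxa6 were not called, with log2 fold changes between -0.27 and 0.24. In the Hoxb cluster the order differed. Hoxb9, an abundant transcript, fell from 816 and 708 CPM to 319 and 202 CPM (-1.55, SE 0.22, adjusted p = 0.00173). Hoxb5 rose from 87.0 and 103 CPM to 182 and 188 CPM (0.96, SE 0.12), and Hoxb8, the most abundant Hox transcript, fell by 0.39 on the log2 scale (SE 0.12). Of the Hoxd genes, Hoxd1 fell from 1.2 and 0.896 CPM to 0.152 and 0.28 CPM, and Hoxd13 had no read in either KI library and was at least 7.47-fold lower than its flox levels of 0.208 and 0.199 CPM, taking 3 reads over the KI libraries as the floor. The Hoxa9, Hoxa10, Hoxc8 and Hoxc9 differences were present at day 8 too, with log2 fold changes of 4.48, 5.22, 4.41 and 4.18 there. Hox clusters hold overlapping and antisense transcripts, and the counting is not stated to use strand, so reads of neighbours may be mixed.

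**Figure D2:**
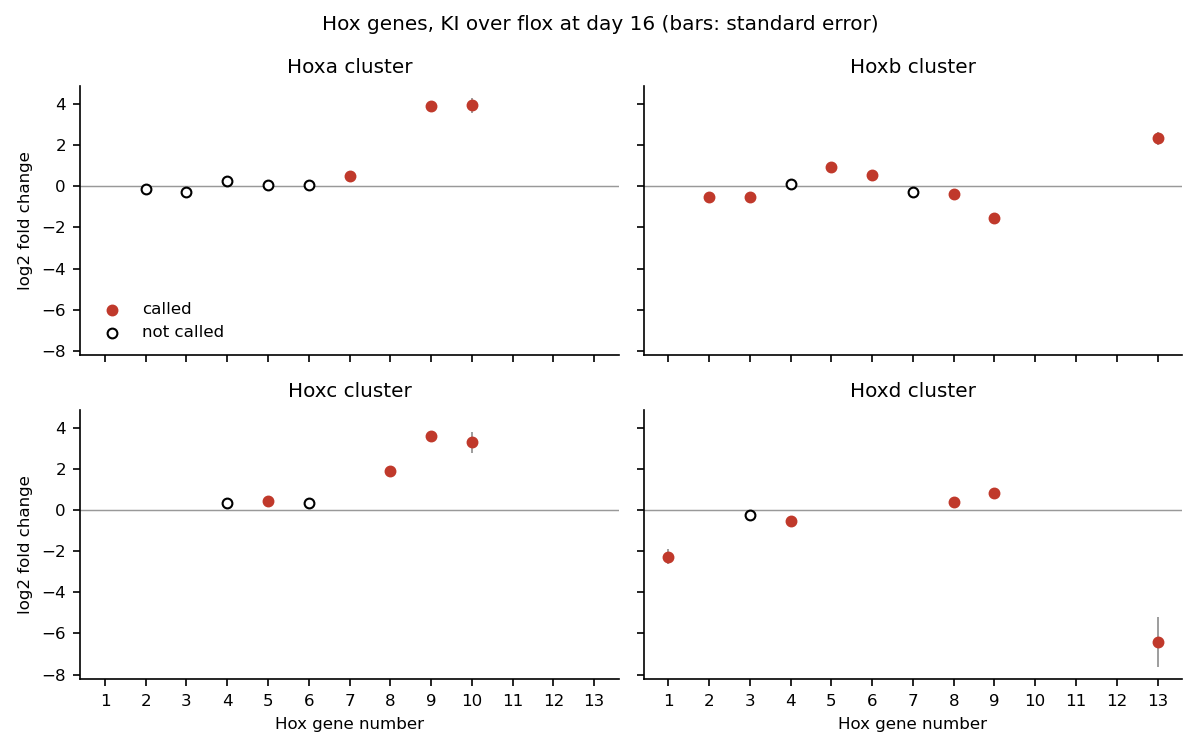
Log2 fold change of KI over flox at day 16 (bars, standard error) against Hox gene number for 29 of the 30 tested Hox genes, 1 panel per cluster, filled points called. Hoxa9, Hoxa10, Hoxc9 and Hoxc10 lie between 3.28 and 3.93, Hoxb9 at -1.55 and Hoxd13 at -6.42, a fitted value with no read in KI that is no measure of size.

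Of 20 tested genes of neural progenitors and radial glia, 11 fell and none rose in the edgeR test (median -0.45), with 6 falls without flox 2 and 7 without KI 27. The Notch target gene Hes1 fell from 28.3 and 28.9 CPM to 13.1 and 9.78 CPM (-1.32, SE 0.16), and Slc1a3, the glutamate transporter of radial glia, from 172 and 158 CPM to 66.6 and 67.4 CPM (-1.30, SE 0.12). Neurog2, a proneural factor gene, fell from 0.711 and 0.772 CPM to 0.133 and 0.0876 CPM (-2.73, SE 0.41). Nes, the nestin gene, fell by 0.49 on the log2 scale (SE 0.12). The most abundant member, Fabp7, was at 326 and 270 CPM in flox and 311 and 406 CPM in KI (adjusted p = 0.165), and the progenitor factor genes Sox1 and Pax6 were not called either (log2 fold changes 0.17 and -0.32).

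Of 16 astrocyte genes, 10 fell and 2 rose (median -1.09; 1 rose without flox 2 or KI 48). The shares were 62.5% lower and 12.5% higher, beside 20.3% and 15.6% of all genes. Gfap, the intermediate filament gene of astrocytes, fell from 19 and 23.3 CPM to 1.6 and 1.68 CPM (-3.68, SE 0.19, adjusted p = 3.48e-09). Sparcl1 fell from 176 and 170 CPM to 61.7 and 60.7 CPM (-1.50, SE 0.12), the gap junction gene Gja1 from 32.3 and 27.2 CPM to 12.2 and 13.2 CPM (-1.23, SE 0.14), and Nfia and Nfib, factors that turn progenitors towards glia, by 1.10 and 1.07 on the log2 scale. Not all astrocyte genes followed. Aldh1l1 was at 72.4 and 81.7 CPM in flox and 85.7 and 98.8 CPM in KI (adjusted p = 0.114), the glutamate transporter gene Slc1a2 had a log2 fold change of 0.28 (adjusted p = 0.0956), and the glutamine synthetase gene Glul rose by 0.39 (SE 0.12, adjusted p = 0.022). Of the genes that fell, Cd44, Tnc and Id3 are also expressed by fibroblasts. In the oligodendrocyte list 2 of 13 fell and 1 rose (3 rose without KI 27), a share of 23.1% called beside 35.9% of all genes. Myrf fell from 62.3 and 66.6 CPM to 1.12 and 1.37 CPM (-5.69, SE 0.17), while Mbp, the main myelin gene, was at 33.5 and 35.2 CPM in flox and 43.5 and 42.5 CPM in KI (adjusted p = 0.0532), so these genes did not move together. Nkx2-2 had no read in either flox library and 30 and 16 reads in the KI libraries, a level at least 13.7-fold higher.

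Cell cycle genes fell in 16 of 26 (61.5%, beside 20.3% of all genes) and rose in none in the edgeR test (median -0.52). Markers of fibroblasts (24 of 26) and of neural progenitors (11 of 20) fell in the same libraries, and their part was not tested. Mcm2, a subunit of the replicative helicase, fell from 47.2 and 63.5 CPM to 27.4 and 22.5 CPM (-1.15, SE 0.16, adjusted p = 9.47e-05). Ccnd2, the most abundant member and a cyclin of cycling progenitors, fell from 247 and 244 CPM to 118 and 83.2 CPM (-1.28, SE 0.15). Mki67, the proliferation marker, fell from 59.2 and 51.1 CPM to 42.0 and 40.2 CPM (-0.42, SE 0.13, adjusted p = 0.0173). Pcna was not called (-0.27, SE 0.13, adjusted p = 0.107). The count was 9 without KI 27 and 14 without KI 48, and 10 without flox 2.

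The deepest list medians were those of mesothelial (-4.31), acute phase (-2.96) and fibroblast (-1.68) genes. Not all lists of cells outside the nervous system fell as far, with heart and muscle genes at -0.62 and endothelial genes at -0.36. Of 16 tested mesothelial and surface epithelial genes, 12 fell and none rose in the edgeR test, with a median of -4.31. Aldh1a2, which makes retinoic acid, fell from 51.3 and 49.1 CPM to 1.31 and 0.999 CPM (-5.44, SE 0.18, adjusted p = 7.78e-11). Wt1, a mesothelial transcription factor gene, fell from 49.0 and 45.6 CPM to 8.01 and 4.94 CPM (-2.87, SE 0.20), and the keratin genes Krt7, Krt8 and Krt18 fell by 6.22, 4.2 and 4.42 on the log2 scale. Msln, the mesothelin gene, had 33 and 26 reads in flox and 0 and 2 reads in KI. Among the 4 members that were not called, Gpm6a, a neuronal membrane gene and the most abundant of the list, was at 623 and 461 CPM in flox and 717 and 648 CPM in KI (adjusted p = 0.0792), and the epithelial adhesion gene Epcam had a log2 fold change of 0.49 (adjusted p = 0.167).

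Fibroblast and mesenchyme genes fell in 24 of 26 (median -1.68). Their summed level was 7928 and 8376 CPM in flox and 2263 and 1785 CPM in KI, so both KI libraries kept a part of it. Col3a1, a fibrillar collagen gene and the most abundant of the list, fell from 2057 and 2146 CPM to 674 and 523 CPM (-1.81, SE 0.13, adjusted p = 1.11e-07). Col1a1 fell from 876 and 1064 CPM to 137 and 136 CPM (-2.83, SE 0.13), and Tgfbi, a matrix gene, from 16.2 and 16.9 CPM to 1.03 and 1.17 CPM (-3.90, SE 0.19). Col6a2 fell from 366 and 450 CPM to 64.1 and 46.5 CPM (-2.88, SE 0.17), whereas the third chain of collagen VI, Col6a3, was at 193 and 211 CPM in flox and 239 and 194 CPM in KI (0.10, SE 0.13, adjusted p = 0.571). Smooth muscle and pericyte genes fell in 9 of 12 (median -1.60), led by Des (-3.18, SE 0.48). Acta2, the most abundant of them, was at 43.7 and 46.9 CPM in flox and 38.6 and 34.4 CPM in KI (adjusted p = 0.07). Neural crest genes had shares of 33.3% lower and 11.1% higher, beside 20.3% and 15.6% of all genes. In the neural crest list 3 of 9 fell and 1 rose (2 rose without KI 48, none without flox 2), with Pax3 falling from 11.8 and 10.5 CPM to 2.61 and 3.33 CPM (-1.90, SE 0.18) and Tfap2b at 73.1 and 62.1 CPM in flox and 58.2 and 64.0 CPM in KI (adjusted p = 0.396).

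Endoderm genes fell in 12 of 17 and rose in 2 (median -0.98), with 7 falls without flox 2 and 1 rise without flox 1, flox 2 or KI 27. Falls made up 70.6% of the endoderm list and rises 11.8%, beside 20.3% and 15.6% of all genes. Gata4 fell from 8.87 and 8.66 CPM to 1.75 and 0.911 CPM (-2.73, SE 0.25), and Gata6 from 42.5 and 47.4 CPM to 9.64 and 4.86 CPM (-2.64, SE 0.35, adjusted p = 0.00483). Sparc, a matrix gene that fibroblasts also make, fell from 430 and 427 CPM to 144 and 115 CPM (-1.73, SE 0.13). Foxa1 and Foxa2, pioneer factor genes of endoderm and floor plate, rose, Foxa1 from 0.486 and 0.498 CPM to 1.88 and 1.47 CPM (1.76, SE 0.28) and Foxa2 from 0.139 and 0.0996 CPM to 0.875 and 0.28 CPM (2.20, SE 0.61, adjusted p = 0.0157). The defining endoderm genes Sox17, Hnf4a, Afp and Ttr were too low to be tested. Heart and striated muscle genes fell in 7 of 17 (3 without flox 2) and rose in 2, and most of those that fell were under 1.5 CPM in flox. Falls were 41.2% of the list and rises 11.8%, beside 20.3% and 15.6% of all genes. The list median was -0.62, and 0.14 with at least 1 CPM in 2 libraries. Tbx5, a factor of heart and body wall mesoderm, fell from 4.23 and 4.18 CPM to 0.913 and 0.824 CPM (-2.28, SE 0.22). Ryr2, a calcium channel gene of heart and neurons, rose from 119 and 117 CPM to 182 and 189 CPM (0.65, SE 0.11). In the endothelial list 2 of 10 fell and 1 rose, shares of 20.0% and 10.0% beside 20.3% and 15.6% of all genes. Leaving out 1 library gave 1 to 4 falls (4 without KI 27, 1 without any of the others) and 0 to 3 rises (3 without KI 48, 0 without any of the others). Kdr, a receptor gene for VEGF, fell from 43.0 and 41.7 CPM to 2.09 and 0.911 CPM (-4.83, SE 0.33), while Cdh5 and Pecam1, which define endothelium, were under 1.1 CPM in all 4 libraries.

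**Figure D3:**
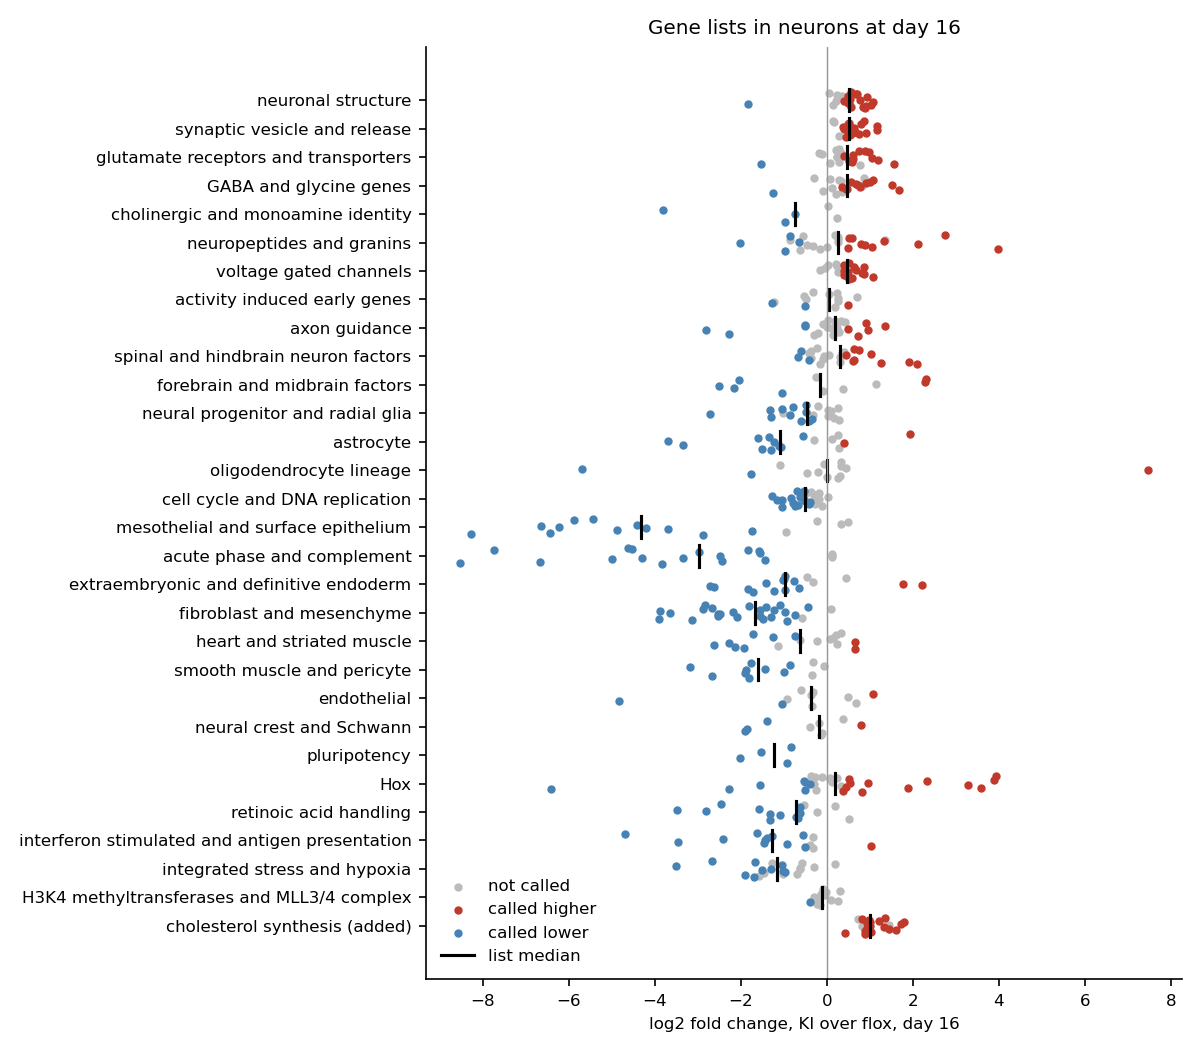
Log2 fold change of KI over flox at day 16 for each tested member of 30 gene lists, with called genes coloured and the list median as a black bar. Medians run from -4.31 in the mesothelial list to 1.00 in cholesterol synthesis, a list chosen after its values were seen, and the neuronal structure and synaptic vesicle lists both have 0.53.

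Acute phase and complement genes fell in 16 of 19 and rose in none in the edgeR test (median -2.96), and 20.3% of all tested genes fell. Their summed level was 301 and 307 CPM in flox and 41.4 and 32.8 CPM in KI. After Saa3 and C3, the complement proteases C1s1 and C1ra fell, C1s1 from 32.6 and 29.3 CPM to 1.46 and 1.23 CPM (-4.52, SE 0.18) and C1ra from 17.3 and 15.8 CPM to 0.837 and 0.508 CPM (-4.63, SE 0.23). Ccl2, a chemokine gene that attracts monocytes, fell from 11.8 and 13.5 CPM to 2.36 and 0.894 CPM (-2.96, SE 0.44). Nfkbia, the inhibitor and target of NF-kB, fell from 47.3 and 54.3 CPM to 20.4 and 17.3 CPM (-1.43, SE 0.14). The complement gene Cfb was not called (0.12, adjusted p = 0.701). C1ra and C1s1 neighbour near-identical copies (C1rb and C1s2), so reads may be shared between them. Mesothelial and fibroblast markers fell in the same libraries, from summed levels given above for fibroblasts. Their part in this result was not tested.

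Many acute phase promoters carry sites for C/EBP factors, and the promoters of the 2 genes that fell furthest in the list are shown for that reason. Each line gives the 250 bases before the gene start, 5′ to 3′ on the gene's strand, from the RefSeq table on GRCm38.p6, and capitals mark the letters of the C/EBP motif TTGCNNAA on either strand.
Saa3 (chr7:46715677-46715926, minus strand): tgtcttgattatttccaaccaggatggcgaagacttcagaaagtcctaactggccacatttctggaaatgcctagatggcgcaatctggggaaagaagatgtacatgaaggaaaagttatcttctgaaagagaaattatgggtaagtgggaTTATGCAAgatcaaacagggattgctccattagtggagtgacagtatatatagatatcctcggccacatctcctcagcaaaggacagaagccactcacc
C3 (chr17:57228137-57228386, minus strand): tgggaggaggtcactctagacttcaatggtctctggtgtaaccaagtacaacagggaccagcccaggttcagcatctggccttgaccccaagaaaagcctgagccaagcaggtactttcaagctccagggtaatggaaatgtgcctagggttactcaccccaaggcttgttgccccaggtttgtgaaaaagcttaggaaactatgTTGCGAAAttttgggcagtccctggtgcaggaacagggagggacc
The match lies 99 to 92 bases before the start of Saa3 and 45 to 38 bases before that of C3. Of the 19 tested members of the list, 9 had a promoter in the table, and 6 of these held the motif (Saa1, Saa3, C3, Lcn2, Cp and C1s1), beside 8.82% of 12054 tested genes with a promoter. A match of letters is a description of the sequence and no evidence of binding.

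Interferon-stimulated and antigen presentation genes fell in 11 of 15 and rose in 1 (median -1.28). Fibroblast and mesothelial markers fell in the same libraries (24 of 26 and 12 of 16), and their part in this result was not tested. Bst2, the antiviral tetherin gene, fell from 36.5 and 46.2 CPM to 1.79 and 1.38 CPM (-4.71, SE 0.19, adjusted p = 5.89e-10). B2m, the light chain of MHC class I, fell from 52.6 and 42.8 CPM to 16.2 and 14.7 CPM (-1.63, SE 0.14), and the class I gene H2-K1 from 88.0 and 109 CPM to 36.5 and 44.7 CPM (-1.28, SE 0.14). Stat2, a signal transducer of type I interferon, rose from 18.9 and 17.2 CPM to 26.9 and 47.3 CPM (1.04, SE 0.27, adjusted p = 0.0258). Its call was lost without flox 1 (adjusted p = 0.211) and without flox 2 (0.264).

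Retinoic acid genes fell in 11 of 15 and rose in none in the edgeR test (median -0.71). The same fall of fibroblast and mesothelial markers stands beside it, and its part was not tested here either. Cyp26b1, which degrades retinoic acid, fell from 103 and 117 CPM to 10.7 and 8.96 CPM (-3.48, SE 0.14, adjusted p = 5.89e-10). Dhrs3, which returns retinal to retinol, fell from 94.0 and 95.6 CPM to 15.6 and 11.4 CPM (-2.81, SE 0.15), and Stra6, the receptor for retinol uptake, from 24.4 and 26.4 CPM to 10.2 and 10.2 CPM (-1.32, SE 0.14). The receptor genes Rarb and Rarg fell by 0.62 and 1.33 on the log2 scale, and Rara had a log2 fold change of -0.23 (adjusted p = 0.193). Crabp1, a carrier of retinoic acid in neurons, was at 38.9 and 43.4 CPM in flox and 49.5 and 44.0 CPM in KI (adjusted p = 0.29).

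The combined list of stress and hypoxia genes held genes of glycolysis and oxygen supply that were lower in both KI libraries. Ldha, which makes lactate, fell from 782 and 828 CPM to 244 and 319 CPM (-1.52, SE 0.13, adjusted p = 9.98e-07). Slc2a1, the glucose transporter, fell from 83.6 and 103 CPM to 24.0 and 26.1 CPM (-1.89, SE 0.14), Pgk1, a glycolytic kinase, from 635 and 580 CPM to 288 and 333 CPM (-0.97, SE 0.12), and Vegfa, the vascular growth factor, from 418 and 450 CPM to 153 and 114 CPM (-1.70, SE 0.14). The fall of fibroblast and mesothelial markers in the same libraries (24 of 26 and 12 of 16) stands beside these falls, and its part was not tested. In all, 10 of 20 genes of the list fell (50.0%, beside 20.3% of all genes) and none rose in the edgeR test (median -1.15). Without KI 27 the count was 19, without KI 48 14, and without flox 1 6. Some members belong to the integrated stress response, which cells switch on when protein folding or amino acid supply fails, and 3 of them, chosen after their values were seen, are given here. Ddit3 was at 114 and 146 CPM in flox, 127 CPM in KI 27 and 41.2 CPM in KI 48 (adjusted p = 0.626). Psat1, an enzyme of serine synthesis, was at 386 and 354 CPM in flox, 275 CPM in KI 27 and 92.3 CPM in KI 48 (adjusted p = 0.432). Atf4, the master factor of this response, was at 364 and 344 CPM in flox, 463 CPM in KI 27 and 347 CPM in KI 48 (adjusted p = 0.285).

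Promoters of hypoxia genes carry the core ACGTG bound by HIF factors. Of 18 members of the list with a promoter in the table, 9 held these letters on either strand within 250 bases before the start, beside 24.2% of the 12054 tested genes. The promoter of Ldha is shown because it is the most abundant of these genes, with the core in capitals, where the 6-letter runs are the core on both strands, overlapping.
Ldha (chr7:46845554-46845803, plus strand): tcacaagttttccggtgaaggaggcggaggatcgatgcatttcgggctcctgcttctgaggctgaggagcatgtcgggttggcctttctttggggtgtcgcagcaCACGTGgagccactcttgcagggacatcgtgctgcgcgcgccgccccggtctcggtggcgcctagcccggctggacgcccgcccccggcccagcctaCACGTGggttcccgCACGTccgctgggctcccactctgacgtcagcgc
A further start of Ldha in the same table has no such letters in its 250 bases. No binding was measured in these neurons.

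Genes of cholesterol synthesis rose together. This list was chosen after its values were seen, so its count is a description. Of 22 tested genes, 18 rose and none fell in the edgeR test (median 1.00), beside 15.6% of all tested genes called higher. Both KI libraries lay above both flox libraries in all 22, and the groups did not overlap in 70.0% of all tested genes. Fdps, the farnesyl diphosphate synthase gene, rose from 130 and 133 CPM to 342 CPM in KI 27 and 578 CPM in KI 48 (1.80, SE 0.26, adjusted p = 0.00419, range over alternatives up to 0.107). Nsdhl, a late enzyme of the pathway, rose from 48.2 and 43.0 CPM to 124 and 155 CPM (1.61, SE 0.13, adjusted p = 4.83e-07). KI 48 was the higher KI library for both. Idi1 and Mvd missed the threshold (adjusted p = 0.136 and 0.115) with levels of 126 and 113 CPM in KI 27 and of 235 and 219 CPM in KI 48, against at most 79.1 CPM in flox. The count was 8 without flox 1, 9 without flox 2, 22 without KI 27 and 19 without KI 48.

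Among genes with at least 100 CPM on average, the largest fall was in Dlk1, an imprinted Notch ligand gene, from 367 and 433 CPM to 15.3 and 26 CPM (-4.27, SE 0.30, adjusted p = 0.000385). Igf2, the imprinted fetal growth factor gene, fell from 1268 and 1187 CPM to 103 and 94.5 CPM (-3.64, SE 0.12), and Igfbp3, a carrier of insulin-like growth factors, from 321 and 345 CPM to 30.0 and 26.6 CPM (-3.56, SE 0.13). Gas1, a hedgehog co-receptor gene, fell from 195 and 240 CPM to 28.6 and 29.0 CPM (-2.92, SE 0.14). In the list of imprinted genes, again chosen after its values were seen, 5 of 27 were higher (18.5%, near the 15.6% of all genes) and 9 lower (33.3%, beside 20.3%), Dlk1 and Igf2 among the latter. Peg3 was at 952 and 962 CPM in flox and 999 and 957 CPM in KI (adjusted p = 0.844), and Snrpn rose by 0.60 (SE 0.11). Lars2, a mitochondrial leucine tRNA synthetase gene, was at 73.8 and 55.5 CPM in flox, 1300 CPM in KI 27 and 212 CPM in KI 48. Both KI libraries lay above both flox libraries, but their spread left Lars2 uncalled (3.55, SE 1.33, adjusted p = 0.2).

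Some genes separated KI 27 from KI 48, in most cases with the flox libraries between them. They were picked by the size of that difference, which is given as a description. Meg3, the maternally expressed long noncoding RNA of the Dlk1 locus, was at 977 and 910 CPM in flox, 2827 CPM in KI 27 and 4.05 CPM in KI 48. Rian, from the same imprinted region, was at 164 and 142 CPM in flox, 550 CPM in KI 27 and 1.95 CPM in KI 48, and Mirg at 3.26 and 3.71 CPM, 7.91 CPM and 0.0701 CPM. Peg13, an imprinted noncoding RNA of another locus, showed the opposite, at 210 and 200 CPM in flox, 0.894 CPM in KI 27 and 509 CPM in KI 48. Dlk1 itself was low in both. The male-specific gene Kdm5d was at 5.97 and 4.85 CPM in flox, 25.8 CPM in KI 27 and 1.63 CPM in KI 48, and Ddx3y, also on the Y chromosome, at 51.0 and 32.6 CPM in flox, 39.9 CPM in KI 27 and 5.24 CPM in KI 48. The homeobox gene Barx1 was at 2.17 and 2.14 CPM in flox, 1.01 CPM in KI 27 and 14.2 CPM in KI 48. None of these 7 genes was called between KI and flox in the edgeR test.

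**Figure D4:**
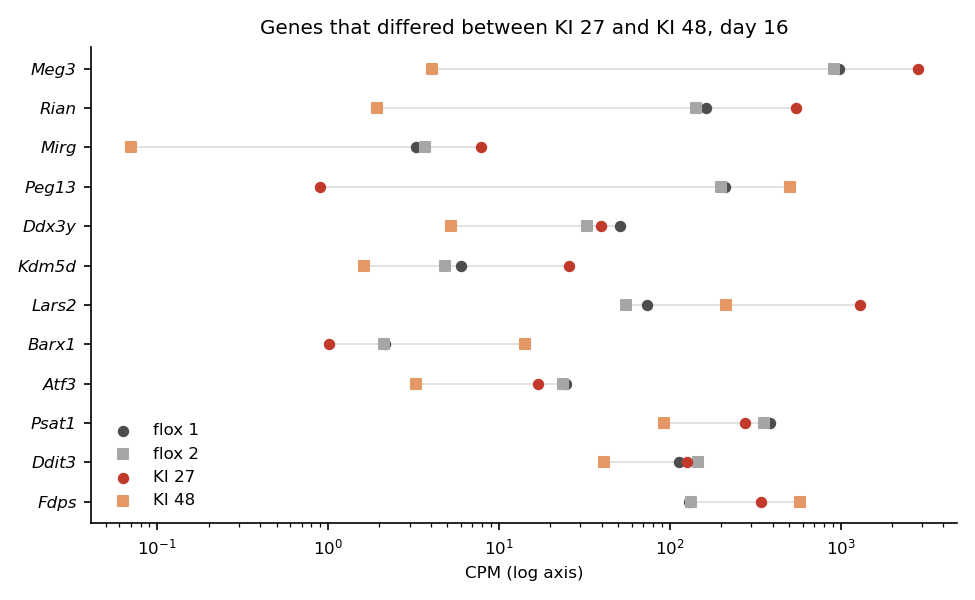
CPM on a log axis of 12 genes with different levels in KI 27 and KI 48, 1 point per library. Meg3 is at 2827 CPM in KI 27 and 4.05 CPM in KI 48, and Peg13 at 0.894 CPM and 509 CPM, with both flox libraries between them in each case.

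Libraries of the same numbers were made at day 8, before plating, so the effect of KI could be set against that of the earlier stage. The difference of the KI effect between the days was called for 5450 of 16439 genes (33.2%), 3150 with a higher KI value at day 16 (19.2%) and 2300 with a lower one (14.0%). In this fit the median difference over all genes was 0.084, so the balance of directions depends on the scaling. With DESeq2 the median was 0.042, and 2648 calls were higher and 2374 lower. Day 8 alone had 1036 genes higher in KI (6.30%) and 2166 lower (13.2%). Of the 3219 genes lower at day 16, 864 were also lower at day 8 and 274 were higher there. Of the 2467 higher at day 16, 217 were also higher at day 8 and 359 were lower. The lists of neuronal structure and synaptic vesicles had negative medians at day 8 and positive ones at day 16. At day 8, 13 of the 24 neuronal structure genes were lower in KI and 1 higher (median -0.50), and for 21 of them the difference between days was called in the upward direction. Stmn2 had a log2 fold change of -0.66 at day 8 (adjusted p = 0.000381) and a difference between days of 1.78. Snap25 had -0.80 at day 8 and a difference of 2.07. The other neuronal lists varied at day 8. Of 5 cholinergic and monoamine genes 4 were lower and none higher (edgeR, median -1.23), of 13 activity induced genes 4 were lower and none higher (-0.50), of 23 channel genes 6 were lower and 4 higher (-0.28), and of 26 neuropeptide genes 7 were lower and 4 higher (-0.20). Spinal and hindbrain factors had 6 higher and 5 lower (median 0.013), axon guidance genes 6 higher and 7 lower, glutamate genes 3 and 4, GABA and glycine genes 2 and 4, and forebrain and midbrain factors 3 and 1 (median 0.25). Cell cycle genes went the other way, with 13 of 26 higher and 1 lower at day 8 (median 0.32), and 23 called differences, all downward. Ccnd1 was 1.31 at day 8 and differed by -1.48 between the days.

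The non-neural lists differed from day 8 in depth. Mesothelial genes had a median of -1.04 at day 8 and -4.31 at day 16, and 10 of 16 differences were called downward and 2 upward. Krt19 was -0.23 at day 8 (adjusted p = 0.445) and differed by -6.32. Col6a1 and Col6a2 were higher in KI at day 8 (1.39 and 1.61) and lower at day 16, with differences of -3.96 and -4.40. Endothelial genes ran the opposite course, with all 10 tested lower in KI at day 8 (median -2.38) and 7 differences upward and 1 downward. Interferon genes had 1 of 15 called lower at day 8 (median 0.14), and 11 differences were called downward and 1 upward. Tac1 was 0.14 at day 8 (adjusted p = 0.858) and differed by 3.92. Cholesterol synthesis genes had no call at day 8 (edgeR, median -0.12) and 19 of 22 differences upward. The day 8 flox libraries were closer to each other than any other neural pair (a chi-square per degree of freedom of 1.50, the other pairs being at 22.2 to 54.8), so the spread used for day 8 and for these differences may be too small.

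**Figure D5:**
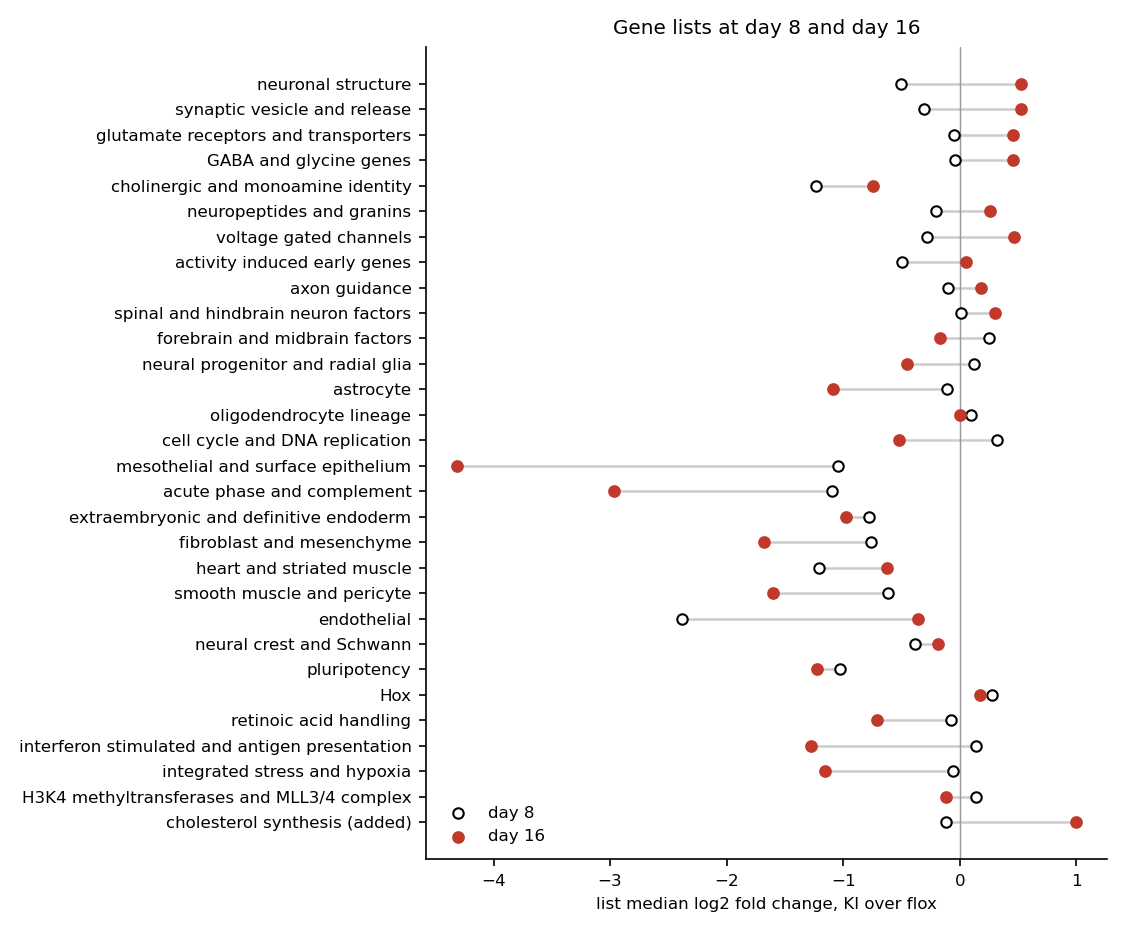
Median log2 fold change of KI over flox of each of 30 gene lists at day 8 (open) and day 16 (red). The neuronal structure list moves from -0.50 to 0.53, cell cycle from 0.32 to -0.52 and the mesothelial list from -1.04 to -4.31. Day 8 values come from the fit of 8 neural libraries and day 16 values from the fit of 4. In the 8-library fit the day 16 medians were 0.62, -0.43 and, for 19 tested mesothelial genes, -3.60.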

How the data were processed

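Per the labels' protocols, poly(A) RNA went into NEBNext libraries. The authors deposited 1 table per library that holds, per the file headers, the count of reads and the RPKM of 29082 RefSeq transcripts. The submitters' processing notes name mm9, bcl2fastq, Bowtie2, STAR and SICER 1.1 without roles, and the counter, the annotation and the use of strand are not given in the sources used here. RPKM values the authors deposited served only for relative transcript lengths. Counts were used as deposited. Of the transcripts, 28436 were matched to a symbol, and 646 kept their accession (1.92% to 2.13% of reads). Transcripts of 1 gene share reads, so each gene was represented by the transcript with most reads over all 37 RNA libraries, giving 23109 entries.

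The 4 day 16 libraries were fitted in R 4.3.3 with edgeR 4.0.16 (filterByExpr at a minimum of 10, TMM scaling, robust glmQLFit, then glmQLFTest), and p-values were adjusted by Benjamini-Hochberg over all tested genes. Differences between days and day 8 values came from 1 fit of 8 neural libraries. Log2 fold changes are KI minus flox, CPM values are TMM-scaled, and each SE was derived from the fold change and its F statistic. Floors cover counting error only. Steps were tested on simulated data. Genes named are the 12 highest and 12 lowest log2 fold changes among called genes with at least 5 CPM in the higher group and no overlap (without Xlr, Gm-numbered and Rik genes), the 5 highest and 5 lowest above 100 CPM, Kmt2c and Kmt2d, and of each list the extremes, the most abundant member and members whose role was needed. Members and lists were chosen with earlier results of these data known, and the cholesterol and imprinted lists, as well as genes that differed between KI libraries, after their values here were seen. Scn9a, Muc16, Cd68, Kmt2a, Setd1b, Hmgcs1 and H19 were not analysed here, and some single genes that the rule names are not reported here. Alternatives were DESeq2 1.42.0, limma-voom (limma 3.58.1), upper quartile scaling, TMM without the 100 most abundant genes, no filter, at least 1 CPM in 2 libraries, summed transcripts, a length trend and leaving out each library. Same-numbered libraries of day 8 and day 16 share a number in their titles, and their deviations from the other library of the group correlated across 15860 genes at 0.257 in KI and 0.092 in flox.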

Additional observations from a re-analysis of the deposited data

Results flagged for a closer look

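The effect of KI was tested for a difference between day 16 and day 8 in all 8 neural libraries, and 5450 of 16439 genes passed. The named genes among them are given here as the log2 difference of the KI effect, day 16 minus day 8. Genes of mesothelial, acute phase or matrix lists had lower values at day 16: Saa3 (-4.21), Upk3b (-4.64), C3 (-5.94), Krt19 (-6.32), Bnc1 (-3.32) and Col6a2 (-4.40). So did Tmem221 (-6.51), Spon2 (-4.52), the muscle gene Mybpc1 (-7.98), the hormone gene Fgf21 (-3.30), Myrf (-3.52), Igfbp3 (-2.66), Gas1 (-2.51) and, by less, Igf2 (-0.65). Mybpc1 was higher in KI at day 8 (log2 fold change 1.55, edgeR adjusted p = 0.000813), so its direction differed between the days. Genes with higher values at day 16 were Tac1 (3.92), Nrn1 (2.46), Fgl2 (2.14), Gask1b (1.39), Nxf3 (1.35), Acsbg1 (1.29) and the cholesterol synthesis genes Fdps (2.08) and Mvd (1.69). En2 was higher in KI at both days, by less at day 16 (-1.21).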

How the results depend on the processing

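The test of KI against flox at day 16 called 5686 genes, and 5123 to 6176 with DESeq2, other scalings, other filters, summed transcripts, a length correction or limma-voom. Leaving out 1 library gave 3414 to 5225 calls (1344 to 2073 higher and 2070 to 3152 lower), with the spread then taken from the group that kept both libraries. The lowest of each came without flox replicate 2, and the higher calls also fell to 1552 without KI 48. With day 8 libraries in the fit there were 4459 higher calls, 57.9% of 7704, and 5567 of these 7704 were shared with the 5686. A 2-fold minimum left 1963 genes, 329 higher and 1634 lower. The difference between days gave 5450 calls, 5914 with the number in the title as a replicate block (5314 shared), 5022 with DESeq2 and 4509 to 6038 without 1 library. Of the alternatives for single named genes, 1450 stayed on their side of the threshold, 50 lost their call and 39 gained one. No called gene turned direction, but uncalled genes could. Kmt2c, with a log2 fold change of -0.04, ranged from -0.12 to 0.055 over the alternatives. Of the alternatives for list medians, 112 moved by more than the spread, and 12 values in 6 lists changed sign. In 2 of these the main median was beyond the spread: heart and striated muscle went to 0.14 with at least 1 CPM, and endothelial to 0.035 without KI 48 (-0.89 without KI 27). The others had medians near 0 or few genes: activity induced genes (-0.26 to -0.054), oligodendrocyte (-0.047 to -0.011), imprinted (-0.070 to -0.0099) and Y-linked (0.23). The leukocyte list kept no tested gene at 1 CPM. A block was not possible for KI against flox, since flox and KI share no number. At these depths genes under about 0.075 CPM could not be told from 0.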

Other observations

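Runs of neighbouring genes were found 24 times, 20 of them lower in KI. A run was taken as 4 or more consecutive tested genes called at least 2-fold in 1 direction. Of all 1963 genes called at least 2-fold, 1634 were lower, and no expected number of runs was worked out. The runs were sought after the values were seen, and they hold copies of a gene whose reads may be shared. Lower runs with immune genes included 5 guanylate binding protein genes from Gbp8 to Gbp6 (median log2 fold change -3.47), 5 genes of the MHC region from Psmb8 to H2-Eb1 (-2.18) and 5 Serpina3 genes (-2.12). Detoxification genes of the Ugt1a cluster, which share exons, formed a run of 7 (-2.74). Epithelial keratin genes Krt15, Krt19, Krt9 and Krt14 had a median of -5.05. The zinc finger genes Zic2 and Zic5 lay in a lower run (-2.67). Upward runs were 11 X-linked genes around Luzp4 and Ott, near-identical in sequence (5.66), the skeletal myosin genes Myh2, Myh1, Myh4, Myh8 and Myh13 (1.86), 4 vomeronasal receptor genes (1.16) and Pnma5, Pnma3, Xlr4a and Xlr3a (3.47). Of the skeletal myosin run, Myh2 was at 0.451 and 0.722 CPM in flox and 1.84 and 2.07 CPM in KI.

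The levels that set KI 27 and KI 48 apart at day 16 were looked up in the other cultures of the same numbers, as CPM of gene-level reads without TMM scaling and with 1 library per number and stage. Meg3 in KI 48 was at 0.799 in stem cells, 0.750 in day 10 embryoid bodies and 1.80 at neural day 8, and had no read in trophectoderm or extraembryonic endoderm cultures. In KI 27 it was at 160, 539 and 100 at the first 3 of these, and at 51.4 and 376 in the extraembryonic cultures. Peg13 in KI 27 was at 0.0424 in stem cells and 0.459 at neural day 8, against 3.53 and 43.8 in KI 48. Kdm5d in KI 48 was at 0.630 in stem cells, against 33.2 in KI 27 and 5.08 in flox. Lars2 did not share this pattern, at 51.9 in KI 27 and 64.9 in KI 48 stem cells.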
